A study of Mus musculus with 9 samples.

Results

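Genes that mark neutrophils, or that neutrophils use to sense bacteria and injured cells, were examined in mouse skin after deletion of *Supt6*, which encodes the histone chaperone and transcription elongation factor SPT6. The 9 genes were chosen by symbol, with earlier results of these data known. They are *Csf3r*, *Ly6g* and *Retnlg*, which mark the cell, and *Clec4d*, *Clec4e*, *Trem1*, *Fpr1*, *Fpr2* and the antisense RNA *Il1bos*. Of these, 8 were matched to a row of the 17943 genes in the count table, and *Il1bos* was not analysed here. Whole-skin RNA-Seq libraries were made from 5 control mice and 4 *Supt6*-KO mice, harvested on day 10 after the last injection. The *Supt6*-KO mice carried K14-CreERT and 2 floxed *Supt6* alleles and received tamoxifen by daily intraperitoneal injection. K14 drives the recombinase in basal keratinocytes, so that neutrophils themselves are not the cells targeted. The labels call the controls wild type, and the methods describe them as *Supt6* fl/fl mice given corn oil, so the effects of the CreERT transgene, tamoxifen and the deletion cannot be told apart. The labels name the ear and the methods dorsal skin. According to the paper, the *Supt6*-KO skin was lesional, the control skin was matched to it, and lesions differed in severity between mice. Ages were not given in the labels, and nothing states that the mice were littermates. Each library held 29627341 to 30967107 estimated counts.

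Neutrophils are short-lived phagocytes that leave the bone marrow under the control of granulocyte colony-stimulating factor (G-CSF), whose receptor is encoded by *Csf3r*. They make their primary granule proteins as marrow precursors, then the secondary and tertiary granule proteins, and carry surface receptors such as Ly-6G, TREM-1 and the formyl peptide receptors when mature. Normal skin holds few of them, and they collect in and under the epidermis in inflamed skin. *Clec4d* and *Clec4e* encode the C-type lectins MCL (Dectin-3) and Mincle, which bind microbial glycolipids and, for Mincle, a ligand from dying cells. Monocytes and macrophages also express *Clec4d*, *Clec4e*, *Trem1*, *Fpr1* and *Fpr2*, whereas *Ly6g* and *Retnlg* are close to specific for neutrophils among leukocytes. In RNA from whole skin, a change in the number of cells of a type and a change in RNA per cell cannot be told apart.

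The promoters of 4 of the genes are shown because 3 of them hold the motif matches described next, and *Clec4d* is the neighbour of *Clec4e*. Each run holds the 250 bases before the transcription start in RefSeq's GRCm38.p6 (the mm10 assembly), read 5′ to 3′ on the strand of the gene. *Clec4d* (chr6:123261857-123262106, plus strand) and *Clec4e* (chr6:123289872-123290121, minus strand) are neighbours. *Ly6g* is on the plus strand at chr15:75155011-75155260 and *Retnlg* on the plus strand at chr16:48872358-48872607. Capitals mark matches to the C/EBP motif TTGCNNAA or the PU.1 motif GAGGAAGT on either strand, 2 factors of granulocyte differentiation, and no 2 matches overlap. For *Ly6g* the first of 2 listed starts is shown.
Clec4d: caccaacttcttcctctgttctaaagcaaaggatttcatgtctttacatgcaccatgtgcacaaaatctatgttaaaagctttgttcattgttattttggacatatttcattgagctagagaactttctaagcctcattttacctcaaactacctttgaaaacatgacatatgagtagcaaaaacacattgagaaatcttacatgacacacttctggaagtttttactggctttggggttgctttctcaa
Clec4e: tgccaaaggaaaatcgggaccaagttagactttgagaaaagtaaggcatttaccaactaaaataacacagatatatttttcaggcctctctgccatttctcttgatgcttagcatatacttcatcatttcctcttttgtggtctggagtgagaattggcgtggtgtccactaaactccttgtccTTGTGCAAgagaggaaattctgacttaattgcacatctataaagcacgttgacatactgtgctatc
Ly6g: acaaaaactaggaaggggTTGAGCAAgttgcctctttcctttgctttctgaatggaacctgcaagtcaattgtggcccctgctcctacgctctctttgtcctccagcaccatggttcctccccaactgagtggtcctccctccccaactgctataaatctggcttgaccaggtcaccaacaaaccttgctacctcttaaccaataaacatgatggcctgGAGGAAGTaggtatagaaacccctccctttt
Retnlg: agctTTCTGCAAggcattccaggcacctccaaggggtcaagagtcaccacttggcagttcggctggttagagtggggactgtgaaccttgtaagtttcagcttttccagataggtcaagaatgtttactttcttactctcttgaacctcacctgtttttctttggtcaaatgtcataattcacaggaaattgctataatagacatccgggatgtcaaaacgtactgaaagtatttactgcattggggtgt

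The C/EBP letters were found in 3 of the 8 promoters. They lie 66 to 59 bases before the start of *Clec4e*, 232 to 225 bases before that of *Ly6g* and 246 to 239 bases before that of *Retnlg*, all on the opposite strand. The same letters occur in 9.55% of 27025 promoters of that length. The PU.1 letters occur in 2.44% of all promoters and in the promoter of *Ly6g* alone among the 8, 31 to 24 bases before its start. Neither the NF-κB letters (3 G, any 2 bases, 3 T and 2 C), found in 1.4% of all promoters, nor the AP-1 letters TGANTCA, found in 6.87%, occur in any of the 8. A match in these windows is a description of the sequence, and an absent match says only that these letters are not in it.

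*Supt6* itself was the check on the labels. Controls 1 to 5 had 2786, 2068, 2297, 3370 and 3798 counts of it and *Supt6*-KO mice 1 to 4 had 684, 503, 478 and 791, with no overlap between the groups. The log2 difference (*Supt6*-KO minus control) was -1.57 (standard error, SE, 0.18; adjusted p = 1.3e-05 by edgeR's quasi-likelihood test). With a length term per library the value of *Supt6* was -0.80, short of 2-fold.

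All 8 neutrophil genes rose in *Supt6*-KO skin. Together they amounted to 1.43 ± 0.411 normalized counts per 1000000 (CPM) in controls (SD, n = 5) and 110.0 ± 60.8 CPM (SD, n = 4) in *Supt6*-KO skin. A gene was called when its p adjusted over all 16426 genes tested was under 0.05 and its change was at least 2-fold. Calls of higher expression were made for 20.9% of all genes and calls of lower expression for 24.9%. The median log2 fold change of the 8 genes was 6.52, with a range of 4.08 to 7.12, against a median of -0.07 over all genes. In 7 of the 8 genes every *Supt6*-KO mouse was above every control (two-sided exact permutation p = 0.0159 for each), a pattern seen in 28.9% of all genes tested, while 31.8% had every *Supt6*-KO mouse below every control.

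Among the identity genes, *Csf3r* had control counts of 23, 14, 14, 15 and 27 and *Supt6*-KO counts of 135, 134, 264 and 271. It was the only one of the 8 with more than 10 counts in every library. Normalized, *Csf3r* went from 0.496 ± 0.144 CPM in controls (SD, n = 5) to 8.47 ± 2.99 CPM in *Supt6*-KO skin (SD, n = 4), a log2 fold change of 4.08 (SE 0.30, edgeR adjusted p = 8.7e-07). The groups did not overlap, and the two-sided exact permutation p was 0.0159, the smallest that 5 mice against 4 allow. *Csf3r* had the most control counts of the 8 genes, 93 over the 5 mice.

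*Retnlg*, which encodes a resistin-like protein secreted by granulocytes, had control counts of 8, 3, 19, 5 and 4 and *Supt6*-KO counts of 279, 279, 1167 and 113. The groups were far apart, but the *Supt6*-KO mice also differed among themselves, with the highest 13.1 times the lowest after normalization. Its level was 0.212 ± 0.183 CPM in controls (SD, n = 5) against 20.6 ± 22.2 CPM in *Supt6*-KO skin (SD, n = 4), with a log2 fold change of 6.59 (SE 0.80, edgeR adjusted p = 2.2e-05). Its log2 fold change was 5.50 when *Supt6*-KO mouse 3 was left out and 7.23 when control mouse 3, the highest control, was.

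*Ly6g* encodes Ly-6G, the surface protein by which mouse neutrophils are usually stained and sorted, and it was barely detected. It had control counts of 0, 1, 0, 0 and 0 and *Supt6*-KO counts of 4, 0, 15 and 1. The groups overlapped, because *Supt6*-KO mouse 2 had no count, and 15 of the 20 counts came from *Supt6*-KO mouse 3. The ratio of the summed normalized counts was 39.4, with an exact 95% counting interval of 6.31 to 1630.0. The edgeR test called *Ly6g* (log2 fold change 4.56, SE 1.28, adjusted p = 0.0076), whereas the two-sided exact permutation p was 0.0952. Without *Supt6*-KO mouse 3 the gene fell under the minimum of 10 counts and was not tested, and without control mouse 2, the one control with a count, its log2 fold change was 5.76. *Ly6g* has close copies in the same cluster, between which the authors' counting could split reads, so a value of a few counts is uncertain.

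**Figure D1:**
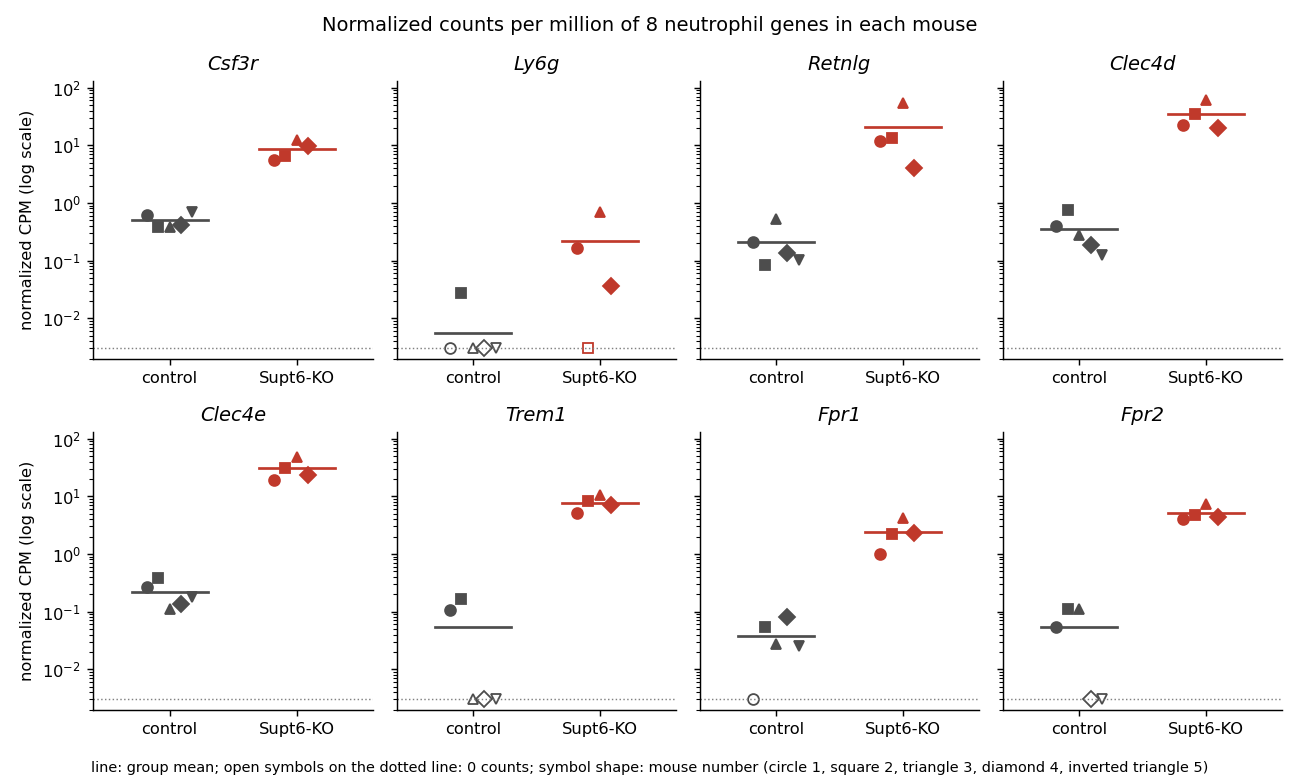
Normalized counts (CPM, log scale) of the 8 genes, with 1 symbol per mouse, controls in grey and *Supt6*-KO mice in red. Horizontal lines are group means, and open symbols on the dotted line are libraries with 0 counts. In every gene but *Ly6g* all 4 *Supt6*-KO mice lie above all 5 controls, and *Supt6*-KO mouse 3 (triangle) is the highest in all 8 on this normalized scale.

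Both lectin receptor genes, scarce in controls, rose in every *Supt6*-KO mouse. *Clec4d* had control counts of 15, 28, 10, 7 and 5 and *Supt6*-KO counts of 536, 728, 1341 and 562. *Clec4e* had 10, 14, 4, 5 and 7 against 454, 637, 1066 and 647. Neither gene had overlapping groups. *Clec4d* was 0.352 ± 0.253 CPM in controls (SD, n = 5) against 34.7 ± 18.9 CPM in *Supt6*-KO skin (SD, n = 4), and its log2 fold change was 6.61 (SE 0.50, edgeR adjusted p = 1.1e-06). *Clec4e* was 0.215 ± 0.111 CPM in controls (SD, n = 5) against 30.4 ± 13.2 CPM in *Supt6*-KO skin (SD, n = 4), and its log2 fold change of 7.12 (SE 0.39, edgeR adjusted p = 1.6e-07) was about that of *Trem1*. Both had an exact permutation p of 0.0159.

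*Trem1* encodes a receptor that amplifies signals from Toll-like receptors. It had control counts of 4, 6, 0, 0 and 0 and *Supt6*-KO counts of 125, 170, 234 and 193. Control counts of *Trem1* came from 2 of 5 mice, whereas all *Supt6*-KO mice had over 100. The log2 fold change was 7.07 (SE 0.62, edgeR adjusted p = 2.5e-06), from 0.0542 ± 0.077 CPM in controls (SD, n = 5) to 7.75 ± 2.3 CPM in *Supt6*-KO skin (SD, n = 4). Without control mouse 2 it was 7.98.

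The formyl peptide receptors guide neutrophils to bacterial peptides and to peptides from damaged mitochondria. *Fpr1* had control counts of 0, 2, 1, 3 and 1 and *Supt6*-KO counts of 24, 46, 92 and 65. *Fpr2*, whose product also binds serum amyloid A and annexin A1, had 2, 4, 4, 0 and 0 against 95, 99, 158 and 124. The *Supt6*-KO mice were thus all above the controls in both genes, and those values of *Fpr2* had the narrowest spread of the 8 genes, with the highest 1.82 times the lowest after normalization. *Fpr1* rose from 0.0378 ± 0.031 CPM in controls (SD, n = 5) to 2.44 ± 1.32 CPM in *Supt6*-KO skin (SD, n = 4), a log2 fold change of 5.87 (SE 0.57, edgeR adjusted p = 4.5e-06). *Fpr2* rose from 0.0547 ± 0.0551 CPM in controls (SD, n = 5) to 5.1 ± 1.45 CPM in *Supt6*-KO skin (SD, n = 4), a log2 fold change of 6.46 (SE 0.52, edgeR adjusted p = 1.6e-06).

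The *Supt6*-KO mice did not have equal levels of these genes. The summed level of the 8 genes was 69.0, 100, 198.0 and 71.0 CPM in *Supt6*-KO mice 1 to 4, and 1.66, 1.97, 1.44, 0.947 and 1.12 CPM in control mice 1 to 5. After normalization mouse 3 was the highest in all 8 genes, and mouse 1 was the lowest in 5 of them. For *Csf3r* this rests on the scaling, since mouse 4 had 271 counts and mouse 3 had 264. The ratio of the highest to the lowest *Supt6*-KO mouse differed between genes, from 1.82 for *Fpr2* through 2.05 for *Trem1*, 2.14 for *Csf3r*, 2.57 for *Clec4e*, 3.04 for *Clec4d* and 4.2 for *Fpr1* to 13.1 for *Retnlg*. No such ratio exists for *Ly6g*, which had no count in mouse 2. *Retnlg* was lowest in mouse 4, where *Csf3r* was close to its highest level.

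Length-normalized transcript levels (TPM), computed here from the counts and the longest transcript of each gene, allow levels to be compared between genes. In *Supt6*-KO skin the median level per length was 28.3 TPM for *Clec4d*, 26.0 for *Retnlg*, 7.84 for *Clec4e*, 5.88 for *Fpr2*, 3.57 for *Trem1*, 3.16 for *Csf3r*, 2.49 for *Fpr1* and 0.155 for *Ly6g*. On this scale the ranges over the 4 mice were separate between *Retnlg* and *Clec4e*, between *Fpr2* and *Trem1*, and between *Fpr1* and *Ly6g*. The other neighbours in this order overlapped, and *Clec4d* exceeded *Retnlg* in 2 of the 4 mice. The authors' own TPM values, which cover 1 *Supt6*-KO mouse, put the 8 genes of that mouse in the same order as the values computed here, but with other gaps between them. They were near the computed values for *Clec4e* (8.42 against 8.58) and *Retnlg* (11.7 against 12.1), and lower for *Clec4d* (15.9 against 27.0), *Csf3r* (2.24 against 4.96), *Trem1* (2.07 against 4.11) and *Fpr2* (3.66 against 6.97). *Clec4e* had nearly as many counts as *Clec4d* in *Supt6*-KO skin but a lower level per length, its transcript being 4804 bases against 1323.

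Ratios within a library do not depend on how libraries are scaled to each other. They can still depend on transcript length, with which log2 fold changes moved as described below, and no length term was used for them. *Csf3r* was set against *Csf1r*, the receptor of macrophage colony-stimulating factor, which marks macrophages and monocytes. In the list of 10 macrophage genes given below, 5 rose and 2 fell, *Csf1r* among those that fell. The ratio thus describes these 2 genes and does not stand for the macrophage list. The log2 ratio of their counts was -6.01, -6.36, -6.28, -6.71 and -6.46 in the controls and -1.33, -0.14, -0.06 and -0.43 in the *Supt6*-KO mice. The means were -6.36 ± 0.26 (SD, n = 5) and -0.49 ± 0.58 (SD, n = 4), a difference of 5.87 (two-sided exact permutation p = 0.0159, adjusted over 3 ratios 0.0476). Both genes contributed, since *Csf1r* fell from 41.9 ± 12.2 CPM in controls (SD, n = 5) to 11.8 ± 3.17 CPM in *Supt6*-KO skin (SD, n = 4), a log2 fold change of -1.83 (edgeR adjusted p = 5.1e-05). With any mouse but control mouse 5 left out, the adjusted p of this ratio was 0.0857 or 0.107, since the smallest p that 8 mice allow does not pass alone after adjustment over 3 ratios.

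The other ratios did not separate the groups. The log2 ratio of *Clec4d* to *Clec4e* was 0.55 ± 0.64 (SD, n = 5) in controls and 0.14 ± 0.24 (SD, n = 4) in *Supt6*-KO skin, with a two-sided exact permutation p of 0.254 and an adjusted p of 0.381. Without control mouse 5, the one control below 0, the difference of *Clec4d* to *Clec4e* went from -0.41 to -0.66 with an adjusted p of 0.0429. With a length term the log2 fold changes lay further apart, at 5.84 for *Clec4d* and 7.58 for *Clec4e*, against 6.61 and 7.12 without it. The ratio was not tested with that term. The log2 ratio of *Fpr1* to *Fpr2* was -0.07 ± 2.18 (SD, n = 5) in controls, where both genes had 4 counts or fewer per library, and -1.19 ± 0.53 (SD, n = 4) in *Supt6*-KO skin (two-sided exact permutation p = 0.444). The difference of *Fpr1* to *Fpr2* was -1.12, or -0.40 without control mouse 4 and -1.68 without control mouse 1. In *Supt6*-KO skin *Fpr2* had more counts than *Fpr1* in all 4 mice.

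**Figure D2:**
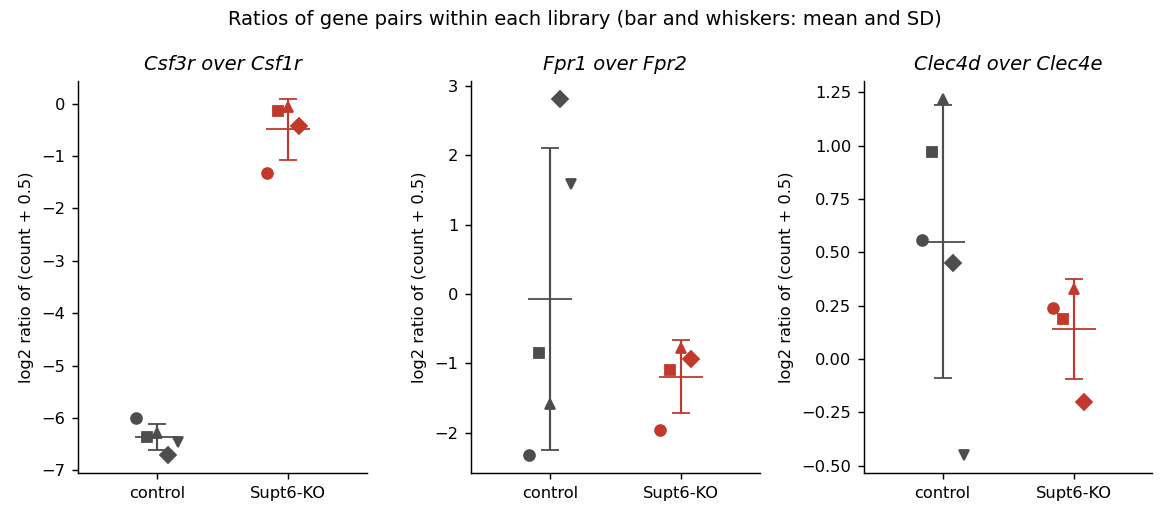
Log2 ratios of gene pairs within each library, with 1 symbol per mouse, controls in grey and *Supt6*-KO mice in red; the bar and whiskers are the mean and SD. The *Csf3r* to *Csf1r* ratio lies between -6.71 and -6.01 in controls and between -1.33 and -0.06 in *Supt6*-KO mice, whereas the groups overlap in the other 2 ratios.

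Neutrophil genes outside the 8 were grouped by the stage at which the cell makes them, and of the 23 tested 15 rose and 1 fell, beside calls of higher expression for 20.9% and of lower expression for 24.9% of all genes. Of 12 genes of mature neutrophils 10 rose and 2 did not pass, with a median log2 fold change of 3.03. Among those that rose, *Cxcr2* (6.0 CPM), *Itgam* (5.17 CPM) and *Hdc* (4.47 CPM) were already detected in controls. Which cells the RNA of the listed genes came from was not tested. Of 8 secondary and tertiary granule genes 5 rose and 3 did not pass, with a median of 2.11. Of 5 primary granule genes none rose, 1 fell, 2 did not pass, and *Elane* and *Ms4a3* had too few counts to be tested. The median of all genes was -0.07, and these lists were not tested as sets. Of the genes that rose, *Ltf* (0), *Ngp* (7), *Cxcr1* (2), *Stfa2l1* (7) and *Trem3* (3) had under 10 counts over the controls. They passed the filter only through the *Supt6*-KO mice, which favoured a call of higher expression.

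*Stfa2l1*, a stefin A cystatin gene abundant in granulocytes and with close copies in its cluster, changed most among the mature neutrophil genes, with a log2 fold change of 9.18 (SE 0.60, edgeR adjusted p = 4.7e-07) from 0.0382 ± 0.0246 to 24.1 ± 15.4 CPM (SD, n = 5 and 4), or 7.23 with a length term. *Cd177*, a neutrophil surface glycoprotein gene, had a log2 fold change of 4.72, and the low-affinity Fc receptor gene *Fcgr4* one of 4.51. *Cd300ld* (2.92), *Hdc*, the histidine decarboxylase gene (2.00), and the chemokine receptor gene *Cxcr2* (1.15) also rose. *Cxcr1* rested on 2 counts in controls and 12 in *Supt6*-KO mice, a ratio of 11.8 with an exact 95% counting interval of 2.63 to 109.0, and without *Supt6*-KO mouse 4 it had too few counts to be tested. Of the integrin genes, *Itgam* had a log2 fold change of 1.06 and was called, whereas *Itgb2*, the gene of its partner chain, had one of 0.12 (edgeR adjusted p = 0.67), or -0.57 by library totals, a difference between genes that was not tested. Scaled by library totals, *Cxcr2* (0.46) and *Itgam* (0.36) were no longer called. *Cxcr2* was also short of 2-fold without *Supt6*-KO mouse 1 (0.92), without control mouse 5 (0.98) and with a replicate block (0.95), and *Itgam* without control mouse 2 (0.98), without control mouse 3 (0.99) and with upper-quartile factors (0.97). *Il1r2*, a decoy receptor gene, was already at 84.6 ± 15.8 CPM in controls (SD, n = 5) and had a log2 fold change of 0.49 (edgeR adjusted p = 0.15), or -0.26 by library totals and -0.23 with a length term.

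In the secondary and tertiary granule list, *Ltf*, the lactoferrin gene, had no count in any control and 31 in the *Supt6*-KO mice, at least 20.4-fold higher against a floor of 3 counts over the control group. *Ngp*, a neutrophilic granule protein gene, had a log2 fold change of 5.10, which was 3.87 without *Supt6*-KO mouse 3 and 5.85 without control mouse 5. The collagenase gene *Mmp8* had one of 5.07, *Pglyrp1*, which encodes a peptidoglycan recognition protein, one of 2.3 (1.2 with a length term) and *Lcn2*, the lipocalin gene that keratinocytes also express, one of 1.92 (1.18 with a length term). *Camp*, the cathelicidin gene, had 45 counts over the controls and 24 over the *Supt6*-KO mice, with a log2 fold change of 0.10 (edgeR adjusted p = 0.86), or -0.62 by library totals and -1.25 with a length term, with which it was called lower. *Mmp9* (0.46, or -0.25 by library totals) and *Padi4* (0.39, or -0.18 by library totals) were not called either. The value of *Padi4* was 1.14 without control mouse 1 and -0.80 without *Supt6*-KO mouse 4.

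The primary granule gene *Mpo*, which encodes myeloperoxidase, had control counts of 4, 10, 10, 26 and 16 and *Supt6*-KO counts of 1, 0, 0 and 0. It went opposite to the 8 genes, with every *Supt6*-KO mouse below every control and a log2 fold change of -4.62 (SE 0.94, edgeR adjusted p = 9.5e-04). Without *Supt6*-KO mouse 1, the one such mouse with a count, the value was -6.52. *Ctsg*, the cathepsin G gene that skin mast cells also express, had a log2 fold change of -0.09, or -1.16 with a length term and -0.78 by library totals. *Prtn3*, the proteinase 3 gene, had one of -0.52, or -1.54 with a length term and -1.2 by library totals. Neither *Ctsg* (adjusted p = 0.87) nor *Prtn3* (adjusted p = 0.39) passed edgeR's test without that term. With it *Prtn3* was called lower, and *Ctsg* was still not called. Transcript counts of these genes say nothing about the granule proteins, which mature neutrophils carry from the marrow.

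**Figure D3:**
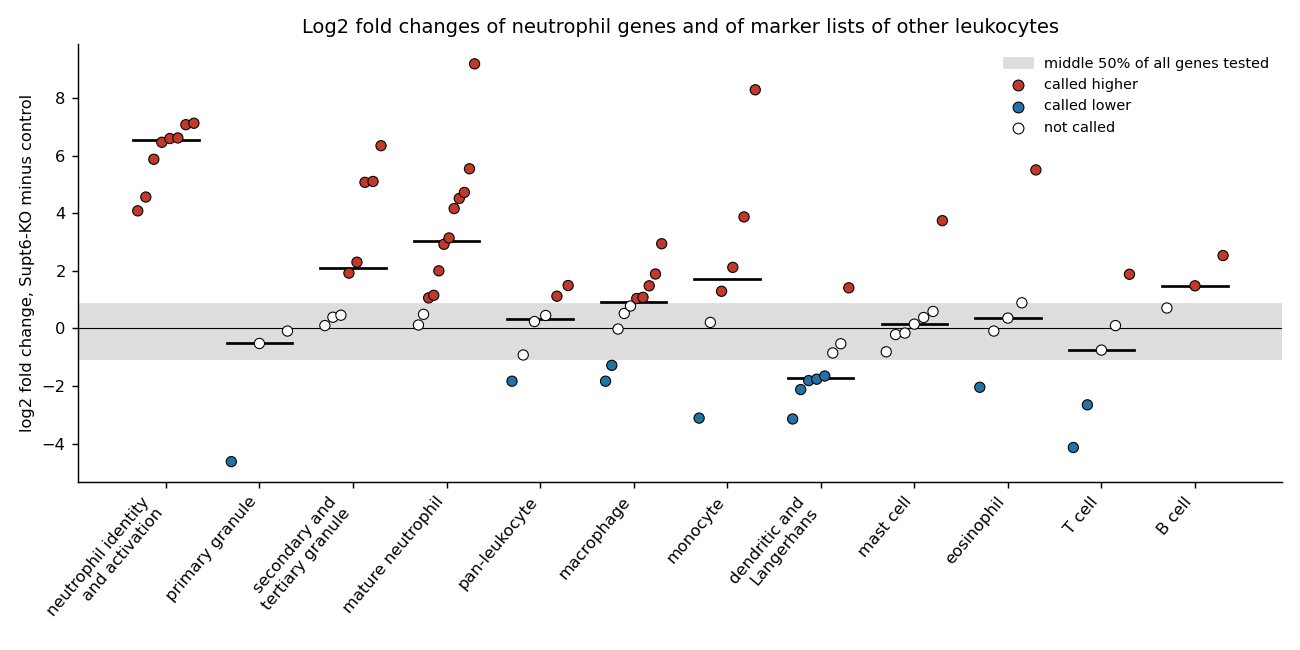
Log2 fold change (*Supt6*-KO minus control) of each tested gene of the neutrophil lists and of marker lists of other leukocytes; red, blue and white points are genes called higher, called lower and not called, black lines are list medians, and the grey band holds the middle 50% of all genes tested. All 8 identity and activation genes lie between 4.08 and 7.12, whereas the dendritic and Langerhans cell list has a median of -1.71.

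The pathways of these receptors were described from gene lists. Of 42 pathway genes other than the 8, 10 rose and 6 fell, beside 20.9% and 24.9% of all genes. In the G-CSF pathway, *Csf3r* apart, 2 of 11 genes rose, 2 fell and 7 did not pass. The 2 that rose, *Csf3* and *Cebpe*, passed the filter only through the *Supt6*-KO mice, which favoured a call of higher expression. *Csf3*, which encodes G-CSF, had 4 counts over all controls and 461 over the *Supt6*-KO mice. Its level was 1.59, 5.09, 10.0 and 3.52 CPM in *Supt6*-KO mice 1 to 4, highest in mouse 3, and its log2 fold change was 7.63 (SE 0.76, edgeR adjusted p = 5.6e-06), or 8.87 without control mouse 2. The transcription factor genes *Stat5a* and *Stat5b* fell, with log2 fold changes of -1.65 and -1.27, and *Stat3*, the main STAT gene downstream of G-CSF, had one of -0.65 (edgeR adjusted p = 0.0021), short of 2-fold, -1.33 by library totals and 0.04 with a length term. *Socs3*, which encodes the feedback inhibitor of the receptor, had one of 0.83 (edgeR adjusted p = 0.012), or 0.18 by library totals, which did not pass, and 1.03 without control mouse 1. *Cebpe*, a gene of granulocyte precursors, was called from 1 count in controls and 9 in *Supt6*-KO mice (ratio 17.7, exact 95% counting interval 2.46 to 778.0), although its groups overlapped and its adjusted p was 0.065 with a replicate block. *Cebpe* was not tested without control mouse 1 or without *Supt6*-KO mouse 1, 3 or 4, since it then had under 10 counts.

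In the C-type lectin pathway, *Clec4d* and *Clec4e* apart, 3 of 9 genes rose, 2 fell and 4 did not pass. Beside *Clec4d* and *Clec4e*, the Dectin-2 gene *Clec4n* rose from 5.38 ± 1.23 to 36.3 ± 9.04 CPM (SD, n = 5 and 4), a log2 fold change of 2.76 (2.05 with a length term), and the Dectin-1 gene *Clec7a* from 3.78 ± 1.13 to 45.0 ± 14.1 CPM, one of 3.57. *Fcer1g*, which encodes the adaptor chain that Mincle and Dectin-2 signal through, had one of 0.96 (edgeR adjusted p = 6.8e-05), just under 2-fold, 1.03 by DESeq2 and -0.45 with a length term. *Syk*, the kinase gene, had one of -0.13 (edgeR adjusted p = 0.55), or 0.43 with a length term. Downstream, *Card9* (-1.72) and *Prkcd* (-1.48) fell, whereas *Bcl10*, whose product binds CARD9, rose (1.13, or 0.44 by library totals).

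In the TREM-1 pathway, *Trem1* apart, 3 of 7 genes rose, 1 fell and 3 did not pass. *Tyrobp*, which encodes the adaptor DAP12 that TREM-1 needs to signal, rose from 9.81 ± 1.09 to 42.4 ± 11.4 CPM (SD, n = 5 and 4), a log2 fold change of 2.11 (SE 0.18, edgeR adjusted p = 2.0e-06). The transcript of *Tyrobp* is short, and with a length term the value was 0.51. *Trem3*, the gene of a related activating receptor, rose from 3 counts over the controls to 88 over the *Supt6*-KO mice (ratio 57.8, exact 95% counting interval 19.2 to 286.0). The fitted log2 fold change of *Trem3* was 5.54, or 6.45 without control mouse 3 and 4.57 with a length term. *Pglyrp1*, whose product is a ligand of TREM-1, is the gene given above with the granule list. *Plcg1*, the phospholipase C gamma gene of many cell types, fell (-1.81).

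In the formyl peptide receptor pathway, both receptors apart, 1 of 12 genes rose, 1 fell and 10 did not pass. The gene that rose was *Saa3*, a serum amyloid A gene, from 0.178 ± 0.201 to 65.1 ± 31.0 CPM (SD, n = 5 and 4), a log2 fold change of 8.49 (SE 0.60, edgeR adjusted p = 7.5e-07), or 9.37 without control mouse 1. *Anxa1*, the annexin A1 gene expressed by keratinocytes, had one of 0.61 (edgeR adjusted p = 0.011), or -0.06 by library totals. *Plcb2* fell (-1.49). Of 6 genes of the NADPH oxidase, which makes the oxidative burst, *Cyba* rose (log2 fold change 2.23, or 0.82 with a length term) and 5 did not pass. Among those was *Cybb*, the gene of its catalytic subunit (0.75, edgeR adjusted p = 0.084), which passed with a replicate block (1.21, adjusted p = 0.0051), with a length term (1.22) and without control mouse 5 (1.19). By DESeq2 *Cybb* had an adjusted p of 0.036 but was short of 2-fold (0.82).

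**Figure D4:**
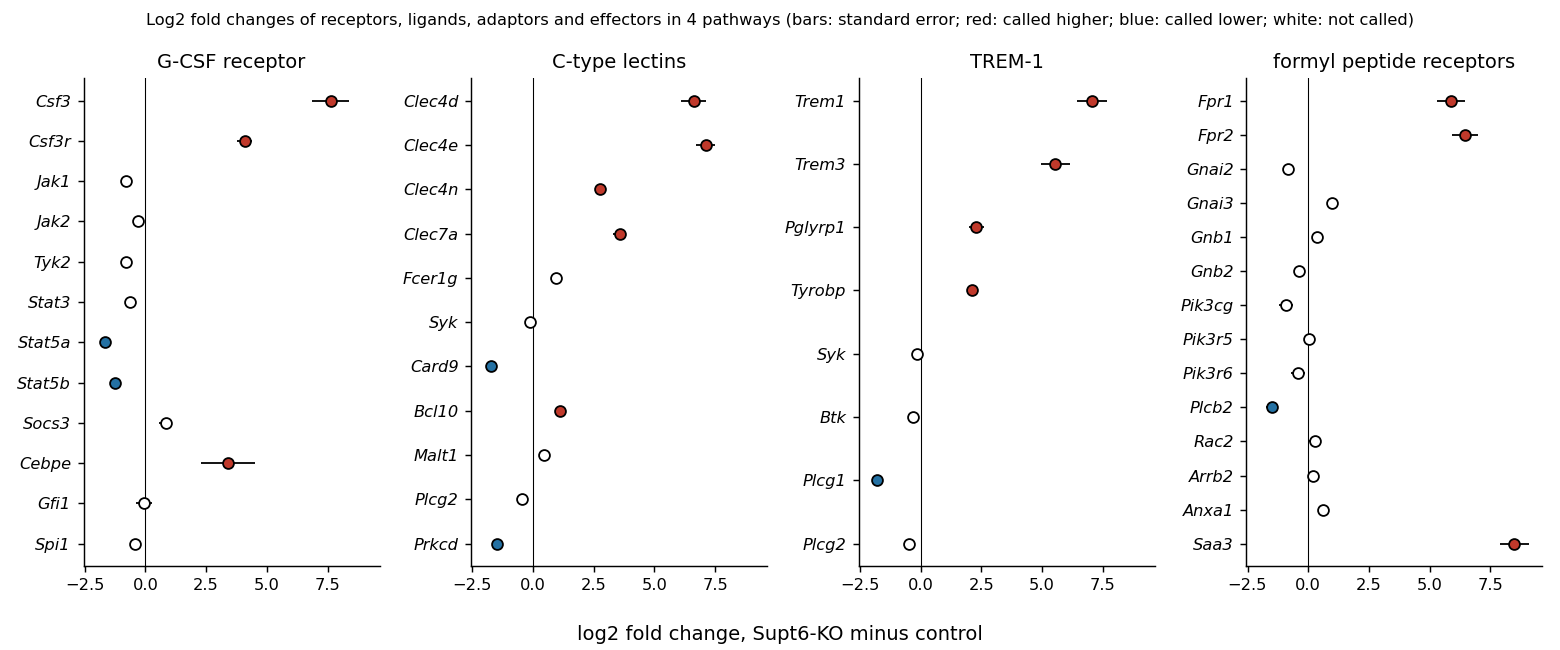
Log2 fold change (*Supt6*-KO minus control) with its standard error for the genes of the G-CSF receptor, C-type lectin, TREM-1 and formyl peptide receptor pathways; red, blue and white points are genes called higher, called lower and not called. The receptors *Csf3r*, *Clec4d*, *Clec4e*, *Trem1*, *Fpr1* and *Fpr2* and the ligand genes *Csf3* and *Saa3* lie above 4, while *Syk* lies at -0.13.

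Of 44 tested markers of other leukocytes 15 rose and 11 fell, beside 20.9% and 24.9% of all genes. Of 10 macrophage genes 5 rose, 2 fell and 3 did not pass, with a median log2 fold change of 0.91. Their summed level was 168.0, 140.0, 108.0, 162.0 and 272.0 CPM in the controls and 288.0, 262.0, 294.0 and 332.0 CPM in the *Supt6*-KO mice. *Mrc1*, the mannose receptor gene, was the most abundant over all 9 mice and rose (log2 fold change 1.89), as did *Ms4a7* (2.94), whereas *Csf1r*, which was above *Mrc1* in controls, and *Mertk* (-1.28) fell. Of 6 monocyte genes 4 rose and 1 fell. Their summed level was 56.7, 50.1, 46.1, 57.7 and 107.0 CPM against 116.0, 156.0, 189.0 and 134.0 CPM, with *F13a1* the most abundant. *Chil3*, a chitinase-like gene that neutrophils and macrophages also express, had a log2 fold change of 8.28, and *Cx3cr1* one of -3.11. The mean macrophage sum thus went from 170.0 to 294.0 CPM, with overlap between the groups, and the mean monocyte sum from 63.6 to 149.0 CPM without overlap. The sum of the 8 genes went from 1.43 to 110.0 CPM. In *Supt6*-KO skin *Clec4d* (34.7 CPM) and *Clec4e* (30.4 CPM), which monocytes and macrophages also express, were its largest parts. *Retnlg* added 20.6 CPM and *Ly6g* 0.222 CPM. The part of monocytes and macrophages in the levels of *Clec4d*, *Clec4e*, *Trem1*, *Fpr1* and *Fpr2* was not tested.

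Among the remaining lists, 6 pan-leukocyte genes summed to 148.0 ± 9.69 CPM in controls (SD, n = 5) and 153.0 ± 24.1 CPM (SD, n = 4) in *Supt6*-KO skin. *Lcp1*, the most abundant of them in controls, was at 50.4 and 26.7 CPM (log2 fold change -0.92, not called). *Cd53* (log2 fold change 1.49) and *Cd52* (1.12) rose, *Laptm5* (-1.83) fell and 3 of the pan-leukocyte genes were not called, beside 20.9% higher and 24.9% lower among all genes. By library totals *Cd53* (0.78) and *Cd52* (0.39) were short of 2-fold, and *Cd52* was -0.61 with a length term and 0.94 without *Supt6*-KO mouse 3. Of 8 dendritic and Langerhans cell genes 5 fell and 1 rose. Of 5 T cell genes 2 fell and 1 rose, of 3 B cell genes 2 rose, of 7 mast cell genes 1 rose, and of 5 eosinophil genes 1 rose and 1 fell. *Epx*, the eosinophil peroxidase gene, had 0 counts over the controls and 2 over the *Supt6*-KO mice, and *Siglecf* was at 0.135 and 0.124 CPM (log2 fold change -0.09, edgeR adjusted p = 0.89). The eosinophil gene that rose was *Ccr3*, a chemokine receptor gene, from 1 count to 42 (ratio 82.8, exact 95% counting interval 14.1 to 3350.0). *Ccr3* passed the filter only through the *Supt6*-KO mice. The fitted log2 fold change of *Ccr3* was 5.50, or 6.70 without control mouse 3 and 4.68 without *Supt6*-KO mouse 4.

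Marker lists of keratinocytes, cartilage and skeletal muscle were set beside the neutrophil genes. Of 8 keratinocyte genes 2 rose, *Krt1* (log2 fold change 3.65) and *Perp* (1.55, or 0.83 by library totals), 2 fell, *Trp63* (-1.21, or -0.65 with a length term) and *Col17a1* (-2.45), and 4 did not pass, beside 20.9% and 24.9% of all genes, with a median of -0.10. The summed level of 8 keratinocyte genes was 29100.0 ± 1270.0 CPM in controls (SD, n = 5) and 48100.0 ± 7070.0 CPM (SD, n = 4) in *Supt6*-KO mice. All 8 of the tested cartilage genes fell, from a summed 552.0 ± 203.0 to 76.1 ± 6.28 CPM. Of 6 skeletal muscle genes 5 fell, from a summed 3940.0 ± 588.0 to 1020.0 ± 228.0 CPM. The labels name the ear and the methods dorsal skin, and whether the groups differ in the tissue sampled was not tested. The part of these differences in the rise of the 8 neutrophil genes was not tested.

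The log2 fold change also moved with transcript length across all genes. Its median was 1.24 for 863 genes with a transcript of at most 1000 bases, 0.64 for 2855 genes up to 2000 bases, 0.03 for 6621 genes up to 4000 bases and -0.63 for 5781 longer genes. *Retnlg* (593 bases) and *Ly6g* (941 bases) are short, whereas *Csf3r* (3481 bases) and *Clec4e* (4804 bases) are long. In the fit with a length term per library, the log2 fold change was 4.22 for *Csf3r*, 7.58 for *Clec4e* and 7.09 for *Trem1*, and it was 4.88 for *Retnlg*, 3.59 for *Ly6g*, 5.84 for *Clec4d*, 5.12 for *Fpr1* and 5.56 for *Fpr2*.

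The loci of the 8 genes were described within 250 kb on either side, a window chosen after the values were seen. Of 36 tested neighbours 14 rose, 7 fell and 15 did not pass, beside 20.9% and 24.9% of all genes. On chromosome 6 the lectin genes *Clec4n*, *Clec4a2* and *Clec4a4*, which are neighbours of *Clec4d* and *Clec4e*, rose with log2 fold changes of 2.76, 2.37 and 2.24, whereas *Clec4b1* did not pass (-0.95, edgeR adjusted p = 0.14). On chromosome 17, 9 neighbours of *Trem1* were tested. *Trem3* (5.54), *Treml4* (5.62), *B430306N03Rik* (3.21), *Trem2* (2.05), *Treml2* (1.77) and *Oard1* (1.19) rose, *A530064D06Rik* (1.48) and *Nfya* (-0.12) did not pass and *Apobec2* fell (-1.92). *Fpr1* and *Fpr2* lie side by side on the same chromosome, and their tested neighbours *Has1* (0.36) and *Spaca6* (-0.09) did not pass. On chromosome 16, *Retnla*, a resistin-like gene of alternatively activated macrophages and other cells, fell from 9.67 to 0.413 CPM (log2 fold change -4.52, edgeR adjusted p = 2.7e-05), while *Retnlg* next to it rose from 0.212 to 20.6 CPM. Near *Retnlg*, *Cip2a* (2.45) also rose, and *Trat1* (-3.01) and *Myh15* (-3.13) fell. On chromosome 15, the *Ly6g* neighbours *Ly6i* (3.19), *Ly6c2* (2.12) and *Ly6a* (1.42) rose, and *Ly6c1* (0.06) and *Ly6e* (-0.60) did not pass. On chromosome 4, 10 genes near *Csf3r* were tested, of which *Lsm10* (1.29) rose, *Stk40* (-2.67), *Sh3d21* (-3.08) and *Col8a2* (-2.73) fell and 6 did not pass.

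Across mice, the genes whose levels most resembled those of *Csf3r* after the group means were removed were *Efemp1* (Pearson r = 0.959), *Espl1* (0.946), *Cfp* (0.937), *Ctsc* (0.929) and *Zfat* (0.925), among 13018 genes and over 9 mice. Their log2 fold changes went both ways, with *Ctsc* (1.75) called higher, *Espl1* (-1.03) called lower, and *Cfp* (0.75), *Efemp1* (-0.69) and *Zfat* (-0.92) short of 2-fold. The r with *Csf3r* was 0.751 for *Fpr1*, 0.59 for *Clec4e*, 0.565 for *Trem1*, 0.54 for *Fpr2*, 0.302 for *Clec4d* and 0.281 for *Retnlg*. These values rest on few mice that share a scaling step, and they are given as a description.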

How the data were processed

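Paired reads were aligned by the authors to mm10 (Bowtie2 2.3.4.3), and RSEM 1.3.1 gave estimated counts per gene, and the submitters' processing notes also list HISAT and DESeq2 1.4.5. The deposited estimated counts, given for 9 mice, were not normalized between mice and were rounded to whole numbers. The deposited TPM values cover 6 of the 9 mice and were used only to check an order of levels. Whether the counting used strand is not given in the sources used here. Estimated counts from RSEM can split reads between near-identical genes. Of 17943 gene identifiers 17917 were matched to RefSeq genes of GRCm38.p6, from which coordinates and promoters come; promoters were found for all 8 genes. Transcript lengths, for 17568 genes, are those of the longest GENCODE M21 transcript.

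The groups were compared with edgeR 4.0.16 (quasi-likelihood test, R 4.3.3) with TMM factors and no covariate, after genes summing to under 10 counts in the 9 mice were removed. P-values were adjusted by Benjamini-Hochberg over the 16426 genes tested. Single values were compared with two-sided exact permutation tests over mice (scipy 1.17.1). Where nothing says that the mice were handled separately, p-values measure the spread between these samples only. TMM factors were 1.198 to 1.315 in controls and 0.674 to 0.91 in *Supt6*-KO mice. Standard errors (SE) were the absolute log2 fold change over the square root of the F statistic. Ratios used a pseudocount of 0.5, and own TPM values divide counts by length. Depth was 29627341 to 30967107 counts per mouse. Where a group had no count, its floor was 3 counts over the whole group. Intervals and floors cover counting error only.

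The genes and lists were chosen with earlier results of these data known. Named genes are the 8 genes, *Supt6*, genes of the fixed lists where a list is reported, and the 5 genes most like *Csf3r* with at least 1 CPM in *Supt6*-KO skin. Genes near the 8 genes were named after their values were seen. The result for 1 gene of the mature neutrophil list is not reported here. Alternatives were DESeq2 1.42.0, its size factors, library totals, upper-quartile factors, other filters, a fit without the 50 most abundant genes, a block on the replicate number, each mouse left out and, chosen after seeing the data, a length correction. Tables were made with Python 3.11.15 and pandas 2.3.3, and figures with matplotlib 3.10.9.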

Additional observations from a re-analysis of the deposited data

Results flagged for a closer look

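A total of 64 sets of 4 or 5 mice were screened for a mouse far from the rest of its group, and 4 were found, against 3.2 expected by chance at 1 in 20. *Ly6g* was at 0.0274 CPM in control mouse 2, from 1 count, while the other controls had none. The summed level of the TREM-1 pathway genes was 108.0 CPM in *Supt6*-KO mouse 3, against a median of 82.4 CPM in its group. The summed level of the monocyte genes was 107.0 CPM in control mouse 5, against a group median of 56.7 CPM. The summed level of the keratinocyte genes was 37700.0 CPM in *Supt6*-KO mouse 4, against a group median of 50900.0 CPM.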

How the results depend on the processing

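All 8 neutrophil genes and *Supt6* kept their direction and an adjusted p under 0.05 in every alternative in which they were tested, at most 19 each. The log2 fold change ranged from 3.39 to 4.23 for *Csf3r*, 3.59 to 5.76 for *Ly6g*, 4.88 to 7.23 for *Retnlg*, 5.84 to 7.11 for *Clec4d*, 6.39 to 7.58 for *Clec4e*, 6.37 to 7.98 for *Trem1*, 5.12 to 6.30 for *Fpr1*, 5.56 to 6.85 for *Fpr2* and -2.26 to -0.80 for *Supt6*. Requiring 10 or more counts per mouse in all mice leaves only *Csf3r* testable, so that 1 of the 8 was called. Under this filter, calls of higher expression went from 15 to 6 among granule and surface genes, from 10 to 6 among pathway genes and from 15 to 8 among markers of other leukocytes, and the 1 lower call among granule and surface genes, *Mpo*, went to 0. A minimum of 1 CPM in 4 mice also removed *Mpo* (0 lower calls), and left 6 calls among the 8 genes and 10 higher calls among granule and surface genes. Without *Supt6*-KO mouse 3, *Ly6g* was not tested and the other 7 genes were called. With library totals, which moved the median over all genes from -0.072 to -0.759, 1470 genes were higher and 6802 lower instead of 3427 and 4088, lower calls among pathway genes went from 6 to 16 and higher calls among markers of other leukocytes from 15 to 9. With the length correction, lower calls among granule and surface genes went from 1 to 3. Among pathway genes higher calls went from 10 to 9 and lower calls from 6 to 5. Among markers of other leukocytes higher calls went from 15 to 11 and lower calls from 11 to 12. Not every gene that gained or lost a call under the length correction is named here. With it, *Supt6* (-0.80), *Stat5b* (-0.73), *Plcb2* (-0.96), *Mertk* (-0.94), *Trp63* (-0.65), *Bcl10* (0.95), *Tyrobp* (0.51) and *Cyba* (0.82) fell short of a 2-fold change, *Cebpe* (2.73) lost its call and *Prtn3* (-1.54), *Camp* (-1.25) and *Cybb* (1.22) gained one. It moved *Ngp* (4.19), *Clec4n* (2.05), *Fcgr4* (3.67), *Csf3* (6.95), *Chil3* (7.67), *Mrc1* (2.50) and *Col17a1* (-1.81) by over 1.5 times with the call kept, beside those given with the results. Library totals turned the direction of *Mmp9* (-0.25) and *Anxa1* (-0.06), and the length correction that of *Camp* (-1.25), *Cd52* (-0.61), *C1qc* (-0.12), *Stat3* (0.04), *Fcer1g* (-0.45) and *Syk* (0.43); the cause was not tested. Of genes that passed in neither fit, library totals also turned the sign of *Camp* (-0.62), *Itgb2* (-0.57), *Il1r2* (-0.26) and *Padi4* (-0.18), and the length correction that of *Il1r2* (-0.23). The replicate block kept all 8 genes called, with 3134 genes higher and 3834 lower. Same-numbered mice had a mean correlation of 0.128 (-0.011 to 0.243), against -0.023 (-0.227 to 0.255) for mice of different numbers, with controls 1 to 4. These ranges overlap, and the labels do not say whether a number stands for a shared litter or batch. The block changed no call of the 8, whereas *Cebpe* (edgeR adjusted p = 0.065), *Cxcr2* (log2 fold change 0.95) and *Cd52* (0.99) lost their calls. *Cybb* (1.21) and the macrophage gene *C1qc* (0.78 without the block, 1.04 with it) each gained a call. With a mouse left out, the *Csf3r* to *Csf1r* difference ranged from 5.73 to 6.15, and that of *Clec4d* to *Clec4e* from -0.66 (without control mouse 5, past the threshold) to -0.24, and that of *Fpr1* to *Fpr2* from -1.68 to -0.40.

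Depth limits the control side of the folds, where 7 of the 8 genes had under 10 counts in at least 1 library, and most of all *Ly6g*.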
